A study of Carassius auratus with 9 samples.

Results

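Hox genes encode homeodomain transcription factors that sit side by side in clusters, and the order of the genes along a cluster follows the order of their expression along the body axis, from paralog group 1 at the head end to group 13 at the tail end. Skin keeps such a positional code in adult vertebrates, and in mammals dermal fibroblasts are known for carrying it. Teleost fish have more Hox clusters than mammals because of an extra genome duplication (hence names such as Ba and Bb), and the lineage of goldfish and carp went through a further one, so that most teleost Hox genes have a pair of copies in goldfish.

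The genes described here are all rows whose product name begins with homeobox protein Hox or whose gene name is hox followed by a cluster letter and a number. They number 92 of 74297 rows. The study sequenced RNA from the back skin of celestial goldfish (Carassius auratus) at 4 months of age. The labels give 3 skin colors, brown, white and yellow, with 3 biological replicates each. They state no treatment, genotype or further difference between the colors and do not say whether a replicate was 1 fish or a pool. Values are FPKM (fragments per kilobase of gene, divided by a scaling factor for each library), so levels of different genes are compared per length. The library size implied by the values was 0.675 times the reads on genes in brown 3 and 1.39 times in white 1, the extremes. In white 3 and yellow 3 it was 0.689 and 0.762 times, while in the libraries numbered 1 and 2 it was 1.08 to 1.39 times. FPKM are therefore not plain shares of a library's reads.

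The libraries held 13772601 to 17359648 reads on genes, of which 2122 to 6384 lay on Hox genes. Keratinocyte markers were present throughout, at 0.957 to 5.62% of reads, as were dermal fibroblast and scale markers, at 1.92 to 14.4%. Skeletal muscle genes (142 rows, 6 of them at 0 throughout) took 20.1% of reads in brown 3, 34.1% in white 3 and 26.8% in yellow 3, against 0.305 to 12.2% in the other 6 libraries. Endothelial markers took at most 0.0291% of reads and immune markers at most 0.164%. In tissue libraries such as these, fewer cells of a type and less RNA per cell cannot be told apart.

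The 92 rows carry 46 gene names. Of these names, 40 had 2 rows, 3 had 3 rows (Hox-A11a, A13a and B5b) and 3 had a single row. They lay at 15 loci, of which 13 are on chromosomes. Hox-Aa genes lay on chromosome 19 (7 rows) and chromosome 44 (8 rows), with a further A11a and A13a on unplaced sequence. Hox-Ab genes lay on chromosomes 16 and 41 with 5 rows each, Hox-Ba on chromosomes 28 and 3 with 11 each, and Hox-Ca on chromosomes 23 and 48 with 10 each. Hox-Da genes lay on chromosome 9 (7 rows) and chromosome 34 (6 rows), and Hox-Bb on chromosomes 12 and 37 with 4 rows each and a lone B5b on chromosome 24. The only Hox-Cb row was C6b, on unplaced sequence. Chromosome numbers are those of the RefSeq assembly ASM336829v1, in which all 92 identifiers have the start position given in the files.

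Hox transcripts were present at low levels in every library. At least 1 read was counted in all 9 libraries for 49 of the 92 genes, and 8 genes had 1 FPKM or more in all 9. A further 42 genes stayed under 1 FPKM in every library. No read was counted in any library for Hox-D13a (LOC113109102) or for C6b (LOC113069214). A read on a gene of 1 kilobase was worth 0.0448 to 0.0891 FPKM depending on the library, so the lowest values rest on a few reads. Some rows overlap others in the annotation (19 of 92, in 18 cases another Hox row), and the sources used here do not say how reads in shared stretches were divided.

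**Figure D1:**
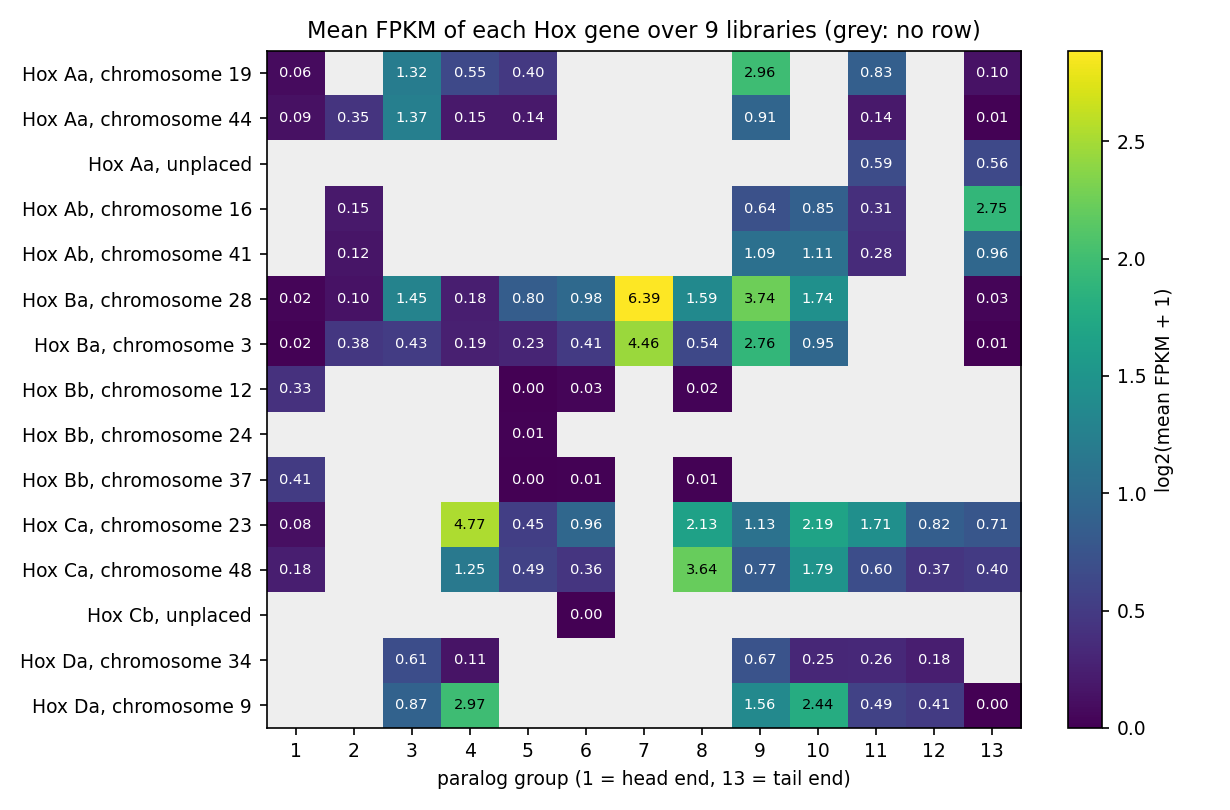
Mean FPKM of each Hox gene over the 9 libraries, by locus (vertical axis) and paralog group (horizontal axis), with the value printed in each cell and log2(mean FPKM + 1) as the color. The highest cells are Hox-B7a on both Ba loci and C4a on chromosome 23, and the Bb rows are near 0 apart from B1b.

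By paralog group, levels did not follow 1 gradient along the series. Group 9 had the highest summed level, 16.2 ± 4.37 FPKM over its 10 genes (SD over 9 libraries). Next came group 10 (11.3 ± 3.25, 8 genes), group 7 (10.8 ± 3.57, 2 genes) and group 4 (10.2 ± 3.37, 8 genes). The groups differ in their number of genes, so the order of the sums is not an order per gene. The SDs of these neighbours in the order overlap, but the sums come from the same libraries and can be compared within each. Group 9 was above groups 10 and 7 in every library. Group 4 was above group 9 in brown 2 (18.8 against 15.9 FPKM), and group 8 was above it in white 3 (17.9 against 11.5). Group 8 summed to 7.93 ± 4.45, group 3 to 6.05 ± 1.11, group 13 to 5.52 ± 3.02 and group 11 to 5.20 ± 2.95. Groups 5, 6 and 12 summed to 2.52 ± 1.16, 2.74 ± 0.967 and 1.78 ± 2.40 FPKM. Groups 1 and 2, which in embryos mark the hindbrain, were lowest, at 1.21 ± 0.516 and 1.10 ± 0.676.

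By cluster, Ba and Ca supplied most of the Hox signal. Ba genes made up 33.1 ± 9.68% of the summed Hox FPKM (SD, n = 9) and Ca genes 30.2 ± 5.56%. Da took 13 ± 2.96%, Aa 12.7 ± 3.92% and Ab 9.89 ± 3.23%. The Bb cluster, with 9 rows, took 1.05 ± 0.452%, most of it from the 2 copies of B1b, and Cb none.

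Among groups 1 to 3, the group 3 genes carried the signal. Hox-A3a (LOC113062275, chromosome 44, 6258241 to 6278837) had 1.29, 2.51 and 1.24 FPKM in the brown libraries, 2.61, 0.823 and 0.942 in the white and 1.28, 1.14 and 0.514 in the yellow. Its colors overlapped, and the row overlaps that of A4a on the same strand. Hox-B3a (LOC113046724, chromosome 28, 9329347 to 9332794) was highest in white 3, at 2.91 FPKM, and lowest in yellow 1, at 0.620. The highest members of groups 1 and 2 were B1b on chromosome 37 (LOC113056179), with 0.201 to 0.705 FPKM, and B2a on chromosome 3 (LOC113044536), with 0.169 to 0.694. B1b on chromosome 12 (LOC113111515) ranged from 0.0546 to 0.883 FPKM, highest in yellow 3. Both B1b rows span rows of B5b and B6b.

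Group 4 was led by Hox-C4a on chromosome 23 (LOC113041571, 17321498 to 17339804), which had 4.30, 11.6 and 4.22 FPKM in brown, 3.03, 3.42 and 4.55 in white and 3.58, 2.48 and 5.73 in yellow libraries. Brown 2 stood above the other 8, whose values lay between 2.48 and 5.73. Hox-D4a on chromosome 9 (LOC113109099, 33292112 to 33295733) had 3.47, 4.82 and 2.43 FPKM in brown, 3.27, 1.23 and 3.47 in white and 3.58, 2.62 and 1.87 in yellow. Here too brown 2 was highest and the colors overlapped. The row overlaps that of D3a on the same strand.

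Hox-B7a was the most abundant Hox gene. Its chromosome 28 copy (LOC113046723, 9274712 to 9278985) had 8.04, 5.0 and 5.37 FPKM in brown, 3.95, 11.5 and 7.24 in white and 6.17, 4.71 and 5.53 in yellow libraries. The chromosome 3 copy (LOC113044483, 5172813 to 5177008) had 4.92, 2.65 and 4.66, then 5.08, 7.88 and 2.78, then 4.88, 4.81 and 2.45 in the same order. White 2 was highest for both copies and the colors overlapped. These are the only group 7 genes among the 92 rows, and neither overlaps another row.

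Of the other middle genes, Hox-B6a on chromosome 28 (LOC113046729) led group 6 with a mean of 0.979 FPKM, and B5a beside it (LOC113046727) led group 5 with 0.800. Hox-C8a on chromosome 48 (LOC113065715, 7790375 to 7793971) led group 8. It had 2.25, 3.86 and 7.01 FPKM in brown, 1.80, 2.96 and 9.05 in white and 1.34, 1.71 and 2.74 in yellow. Within each color the library numbered 3 was highest in FPKM. In reads it was so in brown (120, 144 and 193) and white (97, 128 and 245), but not in yellow (65, 89 and 76). A read on 1 kilobase was worth 0.0869 to 0.0891 FPKM in the libraries numbered 3 and 0.0448 to 0.0646 in the others. The libraries numbered 3 also had the highest share of muscle reads in their color, and the part of muscle in the C8a level was not tested.

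Group 9 owed its rank to many genes, of which 8 of 10 passed the filter for testing. Hox-B9a on chromosome 28 (LOC113046721, 9258095 to 9265772) led with 3.66, 3.33 and 2.27 FPKM in brown, 3.98, 7.85 and 3.12 in white and 3.52, 3.50 and 2.43 in yellow. White 2 stood above the other 8 libraries. Hox-A9a on chromosome 19 (LOC113120066, 27445158 to 27449185) had 2.10, 6.38 and 3.72 FPKM in brown, 2.61, 1.13 and 1.11 in white and 4.54, 4.41 and 0.666 in yellow. Yellow 3 was lowest and brown 2 highest, and the colors overlapped. Hox-D9a on chromosome 34 (LOC113053552) had a mean of 0.670 FPKM. In group 10, Hox-D10a on chromosome 9 (LOC113109096) led with a mean of 2.44 FPKM and a range from 0.689 in yellow 3 to 4.84 in white 1, and both C10a copies followed.

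Among the tail-end groups 11 to 13, A13b on chromosome 16 had the highest mean and C11a on chromosome 23 the next. In fish embryos, group 13 genes act in the tail and the fins. Hox-A13b on chromosome 16 (LOC113116265, 15071355 to 15074203) had 4.22, 1.01 and 4.06 FPKM in brown, 2.60, 0.984 and 1.78 in white and 4.66, 4.42 and 0.990 in yellow. Brown 2, white 2 and yellow 3 were all near 1 FPKM, so each color held both low and high libraries. Hox-A13a, B13a and D13a were much lower, with the highest mean 0.557 FPKM for the unplaced A13a row (LOC113069988). The unplaced A11a row (LOC113069991) had 0.588 FPKM.

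**Figure D2:**
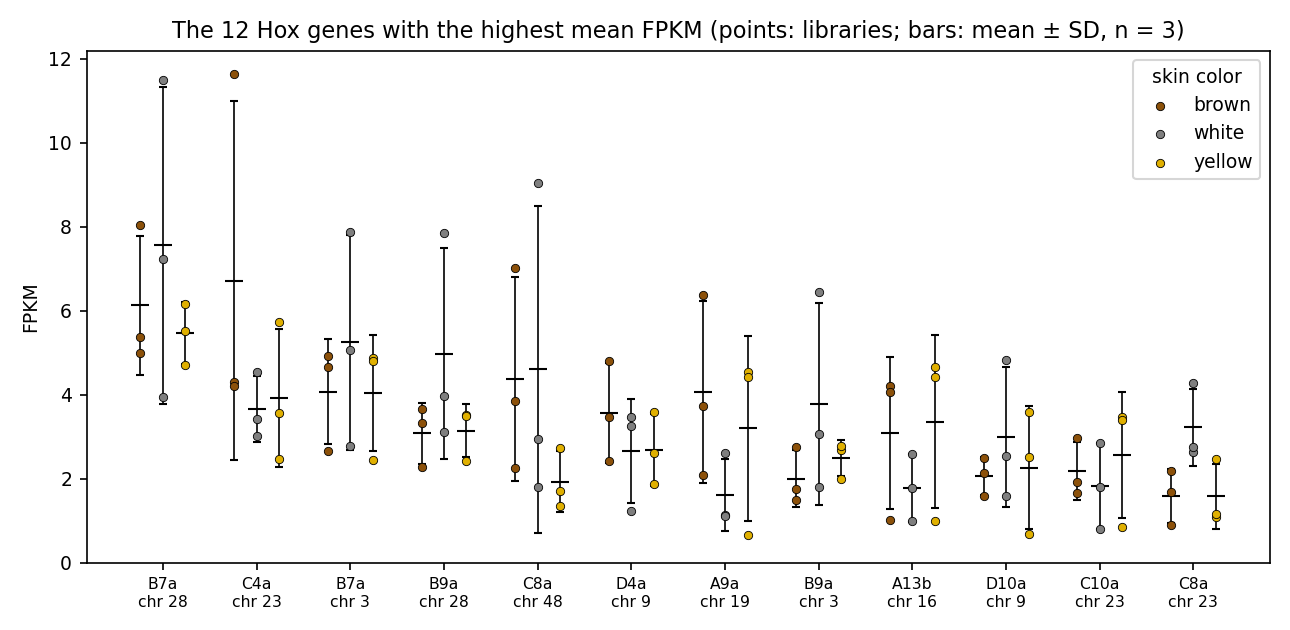
FPKM (vertical axis) of the 12 Hox genes with the highest mean, by skin color, with 1 point per library and the mean ± SD (n = 3) as bars. The colors overlap in 11 of the 12, single libraries such as brown 2 for C4a and white 2 for B7a and B9a stand out, and in C8a on chromosome 23 the white libraries lie above the rest.

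The paired copies of a gene were often unequal. One copy was higher in all 9 libraries for 12 of the 40 names with exactly 2 rows. In an exact two-sided sign-flip test over the 9 libraries on log2(FPKM + 1), the copies differed in 20 of 40 pairs after Benjamini-Hochberg adjustment over the 40, and 0.00390625 is the smallest p such a test can give. Rows of 6 of these 20 pairs overlap other rows. Annotated lengths also differ within pairs, so a ratio of FPKM is not a ratio of reads. Near-identical copies can share reads, and the sources used here do not say how a read that fits both was assigned, so a split between copies is uncertain.

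The largest ratio was that of Hox-D4a, whose chromosome 9 copy averaged 26.7 times the chromosome 34 copy (2.97 against 0.112 FPKM). This pair is among the 6 whose rows overlap others. Next came D10a, with 2.44 FPKM on chromosome 9 and 0.250 on chromosome 34, a ratio of 9.78. Its reads were 974 on 2396 bp and 197 on 4709 bp. For all 6 Da pairs the chromosome 9 copy had the higher mean. Hox-C4a was 3.82 times higher on chromosome 23 than on chromosome 48 (4.77 against 1.25 FPKM), and A9a was 3.24 times higher on chromosome 19 than on chromosome 44. Each of these 4 pairs had the same copy higher in 9 of 9 libraries (exact p = 0.00390625, adjusted p = 0.0130).

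In the Ba cluster the chromosome 28 copy had the higher mean FPKM in 9 of 11 pairs, 6 of them past the test. Of these 6, 3 had no row that overlaps others. For B3a, chromosome 28 had fewer reads, 560 on 2725 bp against 702 on 10479 bp on chromosome 3. For B5a the reads were 118 on 1036 bp and 108 on 3529 bp. In contrast, B2a was 3.65 times higher on chromosome 3 (0.379 against 0.104 FPKM). B7a was higher on chromosome 28 in 7 of 9 libraries, with a ratio of 1.43, and missed the threshold (exact p = 0.0313, adjusted p = 0.0595). In the Ca cluster chromosome 23 had the higher mean in 7 of 10 pairs, 4 past the test, and C8a ran the other way, with 3.64 FPKM on chromosome 48 against 2.13 (8 of 9 libraries, adjusted exact p = 0.0815). In the Ab cluster A13b was higher on chromosome 16 (ratio 2.87) while A9b was higher on chromosome 41 (ratio 1.72), each in 8 of 9 libraries and past the test. Copies of A3a (ratio 1.04) and A10b (ratio 1.31) missed it.

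The summed Hox level did not separate the colors. It was 80.9, 85.1 and 79.7 FPKM in brown, 87.3, 98.8 and 75.9 in white and 85.9, 91.9 and 58.3 in yellow libraries. The means were 81.9 ± 2.82, 87.3 ± 11.4 and 78.7 ± 17.9 (SD, n = 3). Yellow 3 was lowest and white 2 highest, and the colors overlapped. Rescaled to TPM (FPKM divided by its sum over all genes of the library), the sums were 68.8 in brown 3, 71.1 in white 3 and 55.8 in yellow 3, against 136 to 226 in the other 6 libraries. The 3 low ones are those with the most muscle reads. Leaving the 142 rows of the muscle list out of the total gave 86.9, 113 and 78.0 for them and 140 to 235 for the other 6. Muscle RNA from genes outside the list stays in that total, and the part of muscle in these sums was not tested.

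Of the 92 genes, 34 reached 1 FPKM in at least 3 libraries and were tested (37.0%, against 36.9% of all rows). None of groups 1, 2 and 12, and no Bb or Cb gene, was among them. By limma with Benjamini-Hochberg adjustment over all 27420 genes tested, 0 of the 34 passed an adjusted p of 0.05 between brown and white, where 0.0365% of all genes did. The count was 0 between yellow and white (0.0438% of all genes), 0 between brown and yellow (0% of all genes) and 0 in the F test over the 3 colors (0.0474%). At an unadjusted p under 0.05 the counts of Hox genes were 3, 3, 0 and 1, where 5.72%, 3.50%, 1.67% and 3.42% of all genes reached it. A voom fit on recovered reads called 0 of all 27420 genes in every comparison, so its 0 Hox calls add no check. At an unadjusted p under 0.05 it gave 1, 0, 0 and 1 Hox genes, where 676, 536, 157 and 417 of all genes reached it.

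The changes spread around 0. Between brown and white, 17 of 34 Hox genes were higher in brown, with a median log2 difference of -0.01, against -0.02 for all genes tested. Between yellow and white, 12 of 34 were higher in yellow, with a median of -0.15 against -0.03. Between brown and yellow, 20 of 34 were higher in brown, with a median of 0.02 against 0.01. Standard errors of the log2 differences ran from 0.25 to 0.51 with a median of 0.34. The 95% intervals reached from -1.87 to 2.06 across genes and comparisons. The added 1 FPKM shrinks the differences of low genes such as these.

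**Figure D3:**
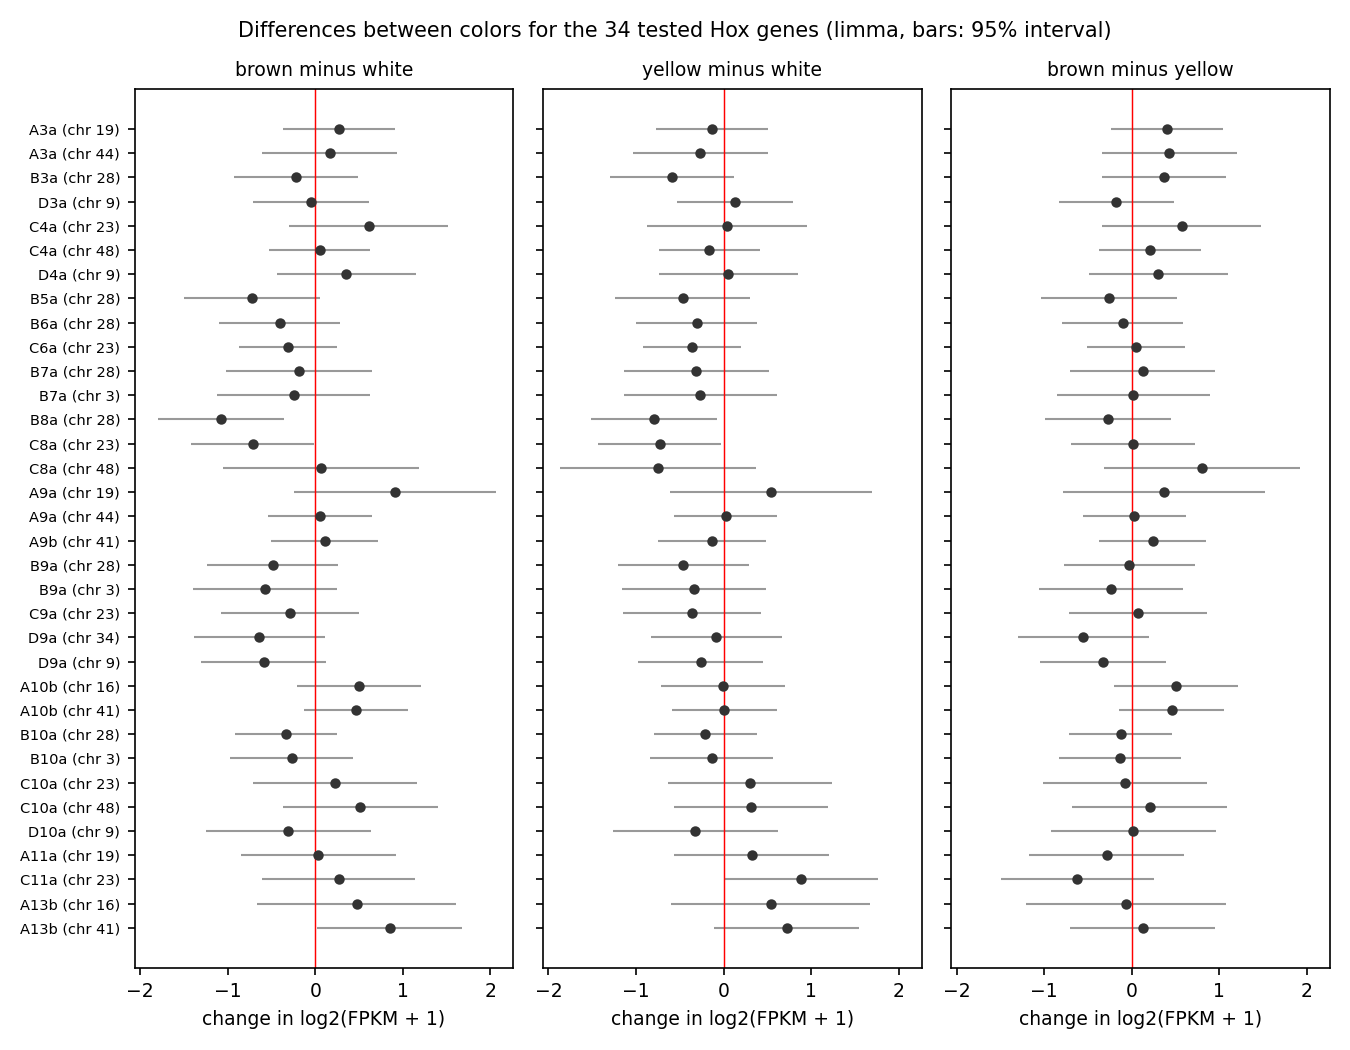
Log2 differences in FPKM + 1 between colors (horizontal axes) for the 34 tested Hox genes (vertical axis, ordered by paralog group), from limma with 95% intervals as bars. Most intervals cross 0, those of B8a on chromosome 28 and C8a on chromosome 23 lie below 0 against white, those of A13b on chromosome 41 (brown minus white) and C11a on chromosome 23 (yellow minus white) lie above 0, and no gene passed the adjusted threshold.

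The smallest unadjusted p belonged to Hox-B8a on chromosome 28 (LOC113046722, 9270161 to 9273437), a gene of trunk identity in vertebrates. It had 1.26, 0.279 and 0.895 FPKM in brown, 1.72, 3.13 and 3.53 in white and 1.35, 0.671 and 1.47 in yellow libraries. All white libraries lay above all brown and all yellow ones. The log2 difference was -1.07 ± 0.32 (SE) for brown minus white (limma adjusted p = 0.788) and -0.80 ± 0.32 for yellow minus white (limma adjusted p = 0.9998). With the muscle level as a covariate, brown minus white was -1.01 ± 0.29.

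Hox-C8a on chromosome 23 (LOC113041576, 17294451 to 17298320) was also highest in white. Its values were 1.68, 0.906 and 2.19 FPKM in brown, 2.63, 2.75 and 4.29 in white and 1.09, 1.17 and 2.47 in yellow, and white lay above both other colors. The log2 differences were -0.71 ± 0.31 and -0.73 ± 0.31 against white (limma adjusted p = 0.788 and 0.9998). In FPKM the highest library of each color was the one numbered 3, as for the chromosome 48 copy, whose colors overlapped. In reads this held for yellow only (58, 67 and 75). The reads were 98, 37 and 66 in brown and 155, 130 and 127 in white.

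Hox-B5a on chromosome 28 (LOC113046727) had 0.523, 0 and 0.676 FPKM in brown against 0.692, 1.77 and 1.46 in white, with 0.288, 0.446 and 1.34 in yellow. Brown lay just below white, by -0.73 ± 0.35 on the log2 scale (limma adjusted p = 0.788). Hox-A10b on chromosome 16 (LOC113116262) was the one gene with all brown values above all white ones, at 1.20, 1.62 and 0.996 FPKM against 0.823, 0.861 and 0.208, a difference of 0.50 ± 0.32. Its chromosome 41 copy (LOC113060171) differed by 0.46 ± 0.27 and overlapped.

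These make 4 Hox genes of 34 without overlap between brown and white, where 10.9% of all genes tested had none. Between yellow and white there were 2 (9.64% of all genes), and between brown and yellow 0 (5.22%). In TPM, B8a, C8a on chromosome 23 and B5a kept white above brown without overlap, and A10b did not, which leaves 3 genes. Yellow lay below white without overlap for 5 genes in TPM, namely B8a, B5a, B3a on chromosome 28 and both C8a copies. Brown lay above yellow for 1, C8a on chromosome 48. The shares of all genes without overlap in TPM were not computed, so these TPM counts have no rate to be set against. For brown minus white, dermal fibroblast and scale markers had a median log2 difference of -0.65, and keratinocyte markers 0.58 (limma adjusted p at least 0.788). The fibroblast markers took 3.50, 14.4 and 3.23% of reads in white 1, white 2 and white 3. The part of tissue make-up in the Hox differences was not tested.

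Hox-A13b on chromosome 41 (LOC113060173) had 1.31, 2.14 and 0.672 FPKM in brown, 0.820, 0.0329 and 0.105 in white and 1.94, 1.09 and 0.513 in yellow. White 2 and white 3 were lowest, and white 1 lay within the range of the other colors. The log2 difference was 0.85 ± 0.37 for brown minus white (limma adjusted p = 0.788) and 0.72 ± 0.37 for yellow minus white. Hox-C11a on chromosome 23 (LOC113041570) had 1.13, 1.07 and 1.84 FPKM in brown, 1.89, 1.17 and 0.148 in white and 2.34, 4.17 and 1.64 in yellow. Yellow minus white was 0.89 ± 0.39 on the log2 scale (limma adjusted p = 0.9998), and the colors overlapped.

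Among sums over paralog groups, group 13 lay higher in brown (8.26, 6.34 and 7.05 FPKM) than in white (4.21, 2.46 and 2.35), while yellow ran from 1.64 to 10.4. Group 6 ran the other way, with 3.52, 4.17 and 3.80 FPKM in white against 2.60, 1.32 and 2.37 in brown and 1.58, 2.34 and 2.99 in yellow. Group 5 was also below white in all brown libraries. These 3 of 13 groups did not overlap between brown and white in FPKM and as shares of the Hox sum, but in TPM all 3 overlapped and group 8 lay lower in brown without overlap. Between yellow and white, groups 3, 6 and 8 were below white without overlap in FPKM, of which group 8 stayed so in TPM. Between brown and yellow, 0 groups were without overlap in FPKM or TPM, and group 3 was higher in brown as a share of the Hox sum. Among the 7 clusters, Ab lay higher in brown than in white (11, 9.41 and 9.63 FPKM against 8.29, 6.15 and 4.35), also as a share, and Ba lay lower in yellow than in white (24.4, 22.9 and 21.9 against 25.3, 51.3 and 31.9). Both overlapped in TPM. Such sums were described without a test. How often like sums of other genes lack overlap was not computed, so these counts have no rate to be set against. Among single genes tested, 10.9% had no overlap in FPKM between brown and white and 9.64% between yellow and white.

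The make-up of the Hox signal varied between libraries, also within each color. Groups 11 to 13 supplied 32.1% of the Hox FPKM in yellow 2 and 3.95% in white 3, the extremes of the series, against 8.86 to 18.4% in the other 7 libraries. Groups 4 to 8 supplied 59.9% in white 3, 51.9% in yellow 3 and 28.6% in yellow 2. In brown the shares of these wide ranges were alike, at 41, 39.6 and 42% for groups 4 to 8 and 16.4, 14.3 and 16.3% for groups 11 to 13. Narrower parts differed within brown. Group 4 took 12.2, 22.1 and 10.7%, group 8 took 6.98, 6.51 and 13.8%, and the Ba cluster took 35.3, 20.0 and 29.2%. Muscle genes took 34.1% of reads in white 3, 26.8% in yellow 3 and 0.899% in yellow 2. Yet brown 3, with 20.1%, had shares of groups 4 to 8 and 11 to 13 close to brown 1 and brown 2. The part of muscle in these shares was not tested.

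**Figure D4:**
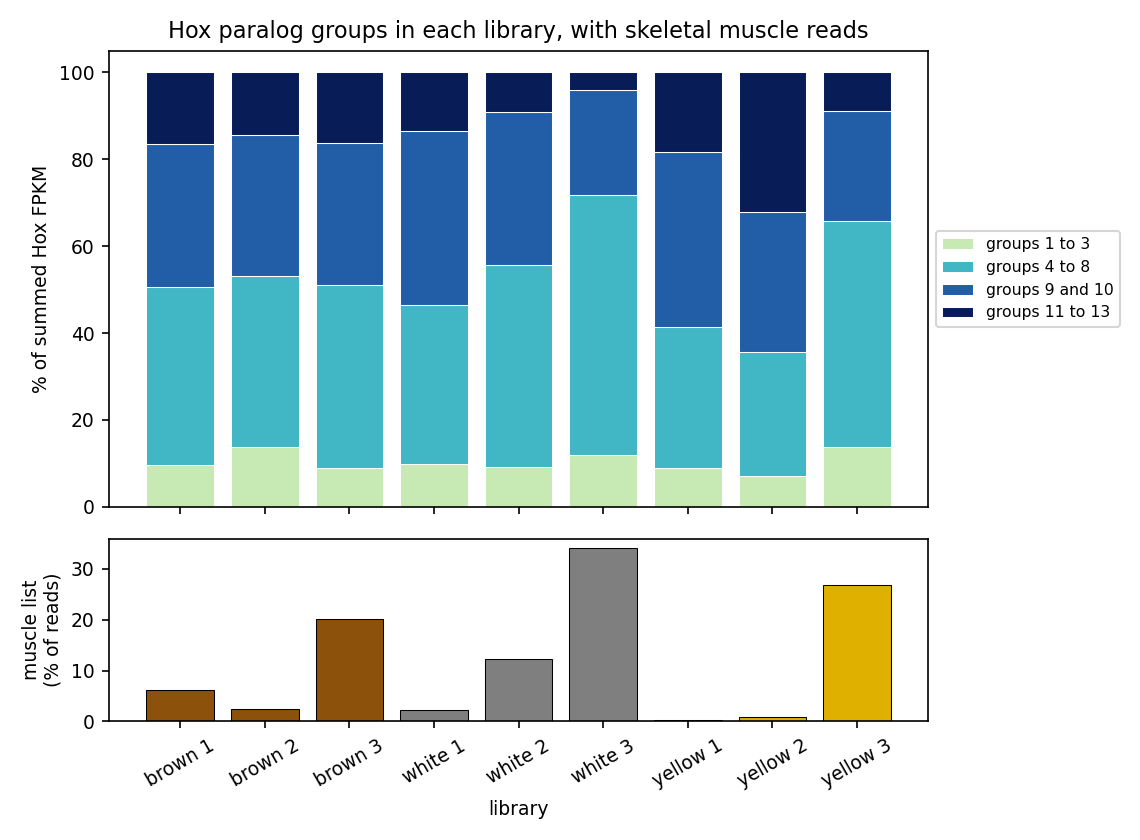
Shares of the summed Hox FPKM from 4 bands of paralog groups in each library (upper panel, %) and the share of reads on skeletal muscle genes (lower panel, %, bars in the skin color). Groups 11 to 13 run from 3.95% in white 3 to 32.1% in yellow 2, and the libraries numbered 3 have 20.1 to 34.1% muscle reads.

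Among groups 11 to 13, the Ca rows set yellow 2 apart more than the rows of other clusters did. The 6 rows of C11a, C12a and C13a summed to 16 FPKM in yellow 2 and to 0.387 to 5.58 in the other 8 libraries. The 17 rows of groups 11 to 13 outside Ca summed to 13.5 FPKM in yellow 2, also the highest library, and to 2.61 to 12.2 in the other 8. Hox-A11a on chromosome 19 (LOC113120062) and D12a on chromosome 9 (LOC113109101) were likewise highest in yellow 2, at 2.00 and 1.45 FPKM. Other rows outside Ca were highest elsewhere, such as A13b on chromosome 16 in yellow 1 (4.66 FPKM) and on chromosome 41 in brown 2 (2.14). Hox-C12a on chromosome 23 (LOC113041574, 17256745 to 17261228) had 4.48 FPKM in yellow 2 and 0.0722 to 0.632 in the other 8 libraries. Its chromosome 48 copy (LOC113065713) had 1.61 FPKM in yellow 2 and at most 0.459 elsewhere. Both copies therefore stood out in the same library.

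Hox-C13a showed the same library at the top on chromosome 23, with 3.00 FPKM in yellow 2 and at most 1.33 elsewhere, while on chromosome 48 (LOC113065711) yellow 2 had 1.09 FPKM and brown 2 had 1.10. Hox-C11a on chromosome 23 was highest in yellow 2, at 4.17 FPKM, and lowest in white 3, at 0.148. Its chromosome 48 copy (LOC113065708) was highest in brown 2, at 2.00 FPKM, followed by yellow 2 at 1.65. For C10a, the next gene toward the head end, yellow 1 and yellow 2 were alike, at 3.47 and 3.41 FPKM on chromosome 23, and white 3 and yellow 3 were lowest, at 0.797 and 0.840. On chromosome 48 (LOC113065709) C10a was highest in yellow 2, at 2.77 FPKM, followed by yellow 1 at 2.45. Neither C12a nor C13a reached 1 FPKM in 3 libraries, so neither was tested.

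**Figure D5:**
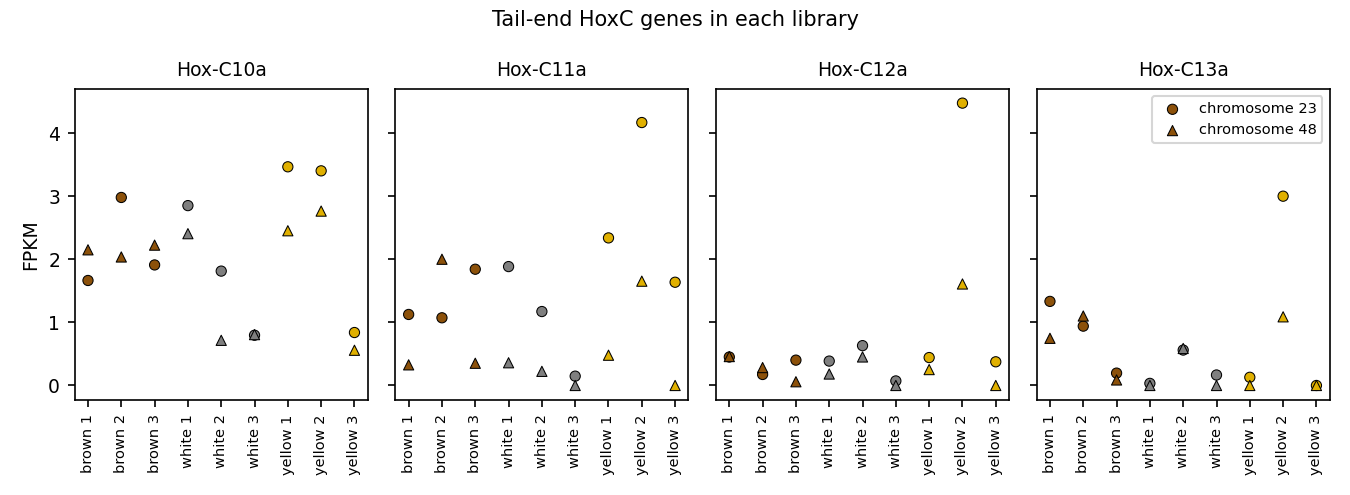
FPKM (vertical axes) of Hox-C10a, C11a, C12a and C13a in each library (horizontal axes), with circles for the chromosome 23 copy and triangles for the chromosome 48 copy, colored by skin color. Yellow 2 is at the top for the chromosome 23 copies of C11a, C12a and C13a, at 4.17, 4.48 and 3.00 FPKM, and for the chromosome 48 copies of C10a and C12a.

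Across the 34 tested genes, yellow 3 was the lowest library for 12 and the highest for 0. Brown 2 was the highest for 9 and the lowest for 8, white 2 the highest for 8, and brown 1 was at neither end for any gene. In 2 of 34 genes all 3 libraries numbered 3 lay below the other 6, and in 0 above them. The shares of all genes tested with such extremes or such a split were not computed. These counts therefore have no rate to be set against and do not show a feature particular to Hox genes.

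Genes that work with Hox proteins were tested alongside. Meis and Pbx proteins bind DNA together with Hox proteins, and Pknox proteins are related to Meis. Of 33 rows for these partners, 22 were tested and 0 passed in any comparison between colors (limma), with 0 also at an unadjusted p under 0.05. Of all genes, 5.72%, 3.50% and 1.67% reached that p, so a count near 0 is no feature of this list. Meis genes summed to 41.5 to 73.1 FPKM, highest in brown 2, and Pbx genes to 14.8 to 58.5, lowest in yellow 3. The 3 most abundant rows were all Meis1, with means of 19.7 (LOC113057274), 11.6 (LOC113113070) and 7.55 FPKM (LOC113048580). Pknox genes summed to 6.90 to 12.6 FPKM.

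Upstream, retinoic acid sets Hox boundaries in embryos through its receptors, and Cyp26 enzymes break it down. Of 39 rows for such regulators, which also include Cdx, Gdf11, Polycomb and MLL genes, 25 were tested and 0 passed in any comparison by limma. At an unadjusted p under 0.05 there were 1, 1 and 0, where 5.72%, 3.50% and 1.67% of all genes reached it. Retinoic acid receptor gamma-A was the most abundant, with means of 35.3 ± 10.2 FPKM (LOC113041568) and 23.3 ± 4.25 (LOC113065707), followed by cytochrome P450 26A1 (LOC113111922), which ranged from 2.99 FPKM in white 2 to 51.9 in white 1. Cdx genes, which switch on Hox genes in the embryonic trunk and tail, summed to at most 0.523 FPKM.

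Other genes of dorsal or axial position were mostly low. Of 70 rows 14 were tested and 0 passed in any comparison by limma. At an unadjusted p under 0.05 there were 1, 1 and 0, where 5.72%, 3.50% and 1.67% of all genes reached it. The top members were 2 MOX-1 rows (LOC113090864 and LOC113111507), with means of 6.35 and 4.43 FPKM, and Tbx15 (LOC113108551) with 4.40. MOX-1 belongs to the Meox family, which acts in the somites that form muscle and dermis. Meox genes summed to 21.2 to 25.9 FPKM in white 2 and the 3 libraries numbered 3, and to 8.50 to 9.89 in the other 5. The 4 high libraries also had the most muscle reads, and the part of muscle in the Meox level was not tested. FPKM summed over all genes was likewise highest in the libraries numbered 3, at 1045470 to 1159120, against 407297 to 623889 in the others, white 2 included. The Meox split is therefore one in FPKM, and the Meox sums were not rescaled to TPM. Tbx5, the pectoral fin gene, summed to at most 0.104 FPKM, and engrailed-1 to 1.94 to 8.21.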

How the data were processed

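RNA-seq of back skin was analysed in 9 libraries, 3 of each color, grouped by the labels. Per the submitters' processing notes HISAT2 and StringTie were used, with no versions. The sources used here name no build, annotation, strand setting or rule for reads that fit several places. FPKM values per gene are those the authors deposited. FPKM times gene length gave whole reads for 100% of nonzero values (tolerance 0.001 reads). Median-of-ratios factors of the FPKM values were all 1, while their sums differed between libraries.

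limma 3.58.1 (R 4.3.3, limma-trend) was fitted to log2(FPKM + 1) for the 27420 genes that reached 1 FPKM in 3 or more libraries, with color as the only term and Benjamini-Hochberg adjustment at 0.05. The fit was tested on simulated data. Alternatives changed the pseudocount, filter, scaling, libraries, covariates and test. Genes named are the highest of each locus and paralog group, and per comparison the 5 with the smallest p and those whose libraries do not overlap. Further genes named for copy ratios or single libraries (C10a, C13a, A9b and the lower copies) were chosen after their values were seen. Members and lists were chosen with earlier results of these data known. The p-values between colors set each difference against the spread between replicates of a color. That spread was estimated over all 9 libraries and moderated across genes by limma. Sequences are not used here.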

Additional observations from a re-analysis of the deposited data

How the results depend on the processing

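In all 20 alternative settings run, 0 Hox genes passed the adjusted threshold in any comparison, and the smallest adjusted p for the 16 gene-by-comparison results recomputed (10 genes) was 0.398, without the 3 libraries numbered 3. The filter at 5 FPKM left 1 Hox gene. The median-of-ratios setting, with all factors 1, repeats the fit reported and adds no check. All 282 alternative values of those 16 results, the median-of-ratios repeats included, missed the threshold. Over all genes, calls ranged from 0 to 14 between brown and white (10 in the fit reported), 0 to 12 between yellow and white (12), 0 to 1 between brown and yellow (0) and 0 to 16 in the F test (13). The fit reported did not pair libraries by the labels' replicate numbers. Deviations of same-numbered libraries correlated at 0.41 to 0.67 for number 1, -0.30 to 0.22 for number 2 and 0.19 to 0.77 for number 3. Of the 9 libraries, 5 correlated best with a library of their own number. With the replicate block, 0 Hox genes were called in each comparison. With the muscle level as a covariate, 15 of 34 Hox genes were higher in brown than in white and 6 in yellow than in white. The medians were -0.09 and -0.22, against -0.02 and -0.04 for all genes tested. In the 3 comparisons 5, 1 and 2 Hox genes then had an unadjusted limma p under 0.05, where 3170, 2010 and 850 of all 27420 genes did. Rescaling to TPM moved the summed Hox level to 123 in brown, 157 in white and 155 in yellow, and TPM without the muscle list, an alternative chosen after seeing the data, to 135, 187 and 163. In the TPM fit with all genes in the total, the filter was applied to TPM and let through 32341 genes, 49 of them Hox genes. The median log2 difference of all genes tested there was -0.20 for brown minus white and -0.22 for brown minus yellow, with Hox medians of -0.16 and -0.20. These medians differ from those of the fit reported both in scale and in the genes tested. Leaving out each library in turn gave 80.3 to 83.0 FPKM in brown, 81.6 to 93.1 in white and 72.1 to 88.9 in yellow. The 92 Hox genes shared 2122 to 6384 reads per library.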

Other observations

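Genes beside and within the Hox clusters were read out as a comparison of neighbours. Of 63 such rows 35 were tested, and 0 passed between colors (limma adjusted p at least 0.788). At an unadjusted p under 0.05 there were 0, 1 and 0, where 5.72%, 3.50% and 1.67% of all genes reached it. Several neighbours were far above any Hox gene. ATP synthase subunit C2 averaged 87.5 FPKM on chromosome 28 (LOC113046718) and 71.8 on chromosome 3 (LOC113044453). It lies on the B13a side of both clusters, with an Evx gene between, and the B13a rows averaged 0.0297 and 0.00743. A ribonucleoprotein A3 homolog on the C1a side of the chromosome 23 cluster (LOC113041581), beyond a chromobox gene, averaged 49.3 FPKM, against 0.0844 for C1a. Evx genes, which flank the tail end of several clusters, summed to at most 0.134 FPKM in any library.

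Retinoic acid receptor gamma-A (LOC113041568) lies near C13a on chromosome 23, with a calcium-binding and coiled-coil domain gene (LOC113041567) between them. The receptor gene ran from 23.6 FPKM in yellow 3 to 53.4 in brown 3. Hox-C13a (LOC113041572) was highest in yellow 2 at 3.00 and listed at 0 in yellow 3.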
